A study of Mus musculus with 10 samples.

Results

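Dido1 (death inducer-obliterator 1) lies on the reverse strand of mouse chromosome 2. Of its annotated transcript ends, 3 are described here. Each was measured as a region made of a 3′ untranslated region (3′UTR) and the 2 kb that follow it. The distal region (mm10, chr2:180655963-180659338) belongs to DIDO3, the middle region (chr2:180663936-180669364) to DIDO2 and the proximal region (chr2:180678954-180683548) to DIDO1. The regions were chosen by these coordinates. They hold 6 of the 43031 deposited features and 3 of the 28706 regions that remained once features with identical coordinates were summed: uc008ojq.2 at the distal end, uc008ojr.2, uc008ojs.2 and uc008ojt.2 at the middle end, and uc008oju.2 and uc008ojv.2 at the proximal end. None of the 3 regions shares a base with another feature on either strand.

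RNA-seq was performed on embryonic stem cells (ESC) of C57BL/6 background, grown with leukemia inhibitory factor on mitomycin C-treated fibroblasts or on gelatin. Cells of 3 genotypes were compared, with 3 libraries each. Wild type (WT) cells carried no listed alteration. DIDO3ΔE16 cells, labelled as the DIDO3_exon16 mutant, lack the DIDO3-specific exon 16, which was floxed in the DIDO-tm3Cmar allele and removed with Sox2-Cre. DIDO3ΔCT+HADIDO3 cells carry the earlier constitutive C-terminal deletion of DIDO3, which affects the same exon, and were reconstituted with HA-tagged DIDO3. The C-terminal deletion without reconstitution was not analysed here, so the deletion and the HADIDO3 construct cannot be told apart in this line. The number of independent ESC clones was not given, and p-values measure only the spread between these libraries. WT had 4 labels, of which replicates 2 and 3 name 1 library, written here as WT replicate 2-3. Levels are in TPM, a measure of transcripts per length that is scaled to the same total in every library. The length includes the added 2 kb, a larger part of the distal region (3376 bases) than of the proximal (4595) and middle (5429) ones. Levels of unlike ends can thus be set side by side only roughly. The proximal and middle regions lie in introns of the transcript Dido1-202, and the part of unspliced RNA in them was not tested. Libraries held between 1.46 and 2.62 Gb of bases within the features.

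All DIDO isoforms share the amino-terminal part of the protein, which holds a nuclear localization signal and a plant homeodomain (PHD) finger, the module that binds methylated histone tails. DIDO2 and DIDO3 add a TFSIIM domain, related to the elongation factor TFIIS, and a SPOC domain, a fold that can bind the phosphorylated tail of RNA polymerase II. DIDO3 alone carries the long carboxy-terminal part encoded by exon 16. The choice of isoform is thus a choice at 2 exons: splicing of exon 6 onward or reading through it, which gives DIDO1, and splicing of exon 15 to exon 16 or reading through it, which gives DIDO2.

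The sequences at these exon edges show what separates the isoforms. They are taken from GENCODE M21 transcripts on mm10, written 5′ to 3′ on the transcribed strand, with the bases after the shared exon edge in capitals. At exon 6 the last shared base is 180683809. At exon 15 it is 180669391.
exon 6, spliced (Dido1-202): ccctattgagtaaatCCATGAAGGATGACA
exon 6, read through (Dido1-204): ccctattgagtaaatGTACGTATCACCCAA
exon 15, spliced (Dido1-202): cctttgagggcccagGTCTTGAATCACCAC
exon 15, read through (Dido1-206): cctttgagggcccagGTAAGCACCCAGTTT

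Both read-through sequences continue with GT, the first bases of the intron. Reading through leads into a stop codon, shown in capitals in the next lines, and the 3′UTR measured at each end begins right after it. The stop codon of the proximal end closes 260 bases after the edge of exon 6, that of the middle end 26 bases after the edge of exon 15, and that of the distal end lies within exon 16 (chr2:180657964-180662583).
proximal end (Dido1-204): atttcttatttcagttttaggccttggTAA
middle end (Dido1-206): ccaggtaagcacccagtttctgggaggTGA
distal end (Dido1-202): gaggggggccctgctgcagcccaggccTAG

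**Figure D1:**
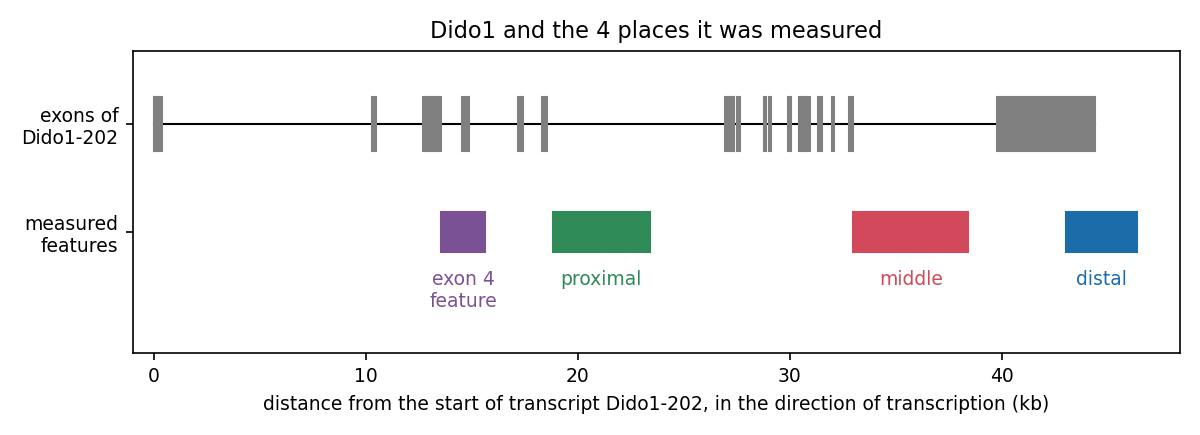
Exons of the longest coding transcript, Dido1-202 (grey), and the 4 places where Dido1 was measured (coloured boxes), by distance in kb from the transcript start in the direction of transcription. The proximal and middle regions lie in introns of Dido1-202, right after exons 6 and 15, the distal region lies at the end of exon 16, and a further feature covers coding exon 4.

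The distal end is where the altered exon is read out, and it served as the check of the DIDO3ΔE16 label. WT replicates 1, 2-3 and 4 gave 17.9, 16.8 and 13.7 TPM. In DIDO3ΔE16 it had 0.546, 0.511 and 0.307 TPM in replicates 1 to 3. In DIDO3ΔCT+HADIDO3 it had 12.1, 11.5 and 10.9 TPM. Whether these reads come from the HADIDO3 construct or from the allele with the C-terminal deletion was not tested. All 3 libraries labelled DIDO3ΔE16 were thus near 0 at this end. Their TPM did not overlap that of WT, which was so for 49.4% of all regions tested. The exact borders of the deletion were not given in the sources used here, so it is not known which part of the distal region is still in the genome of these cells.

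The middle end, where DIDO2 stops, behaved in the opposite way. It was the lowest of the 3 ends in WT, with 4.90, 4.78 and 4.79 TPM in replicates 1, 2-3 and 4. In DIDO3ΔE16 it was the highest, with 90.6, 96.1 and 81.7 TPM. In DIDO3ΔCT+HADIDO3 it had 8.65, 7.30 and 8.44 TPM, above every WT library and far under every DIDO3ΔE16 library.

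The proximal end, where DIDO1 stops, was the highest in WT, with 51.6, 50.8 and 48.5 TPM. In DIDO3ΔE16 it had 6.16, 7.05 and 6.65 TPM. In DIDO3ΔCT+HADIDO3 it had 46.6, 43.9 and 43.8 TPM, close to WT but under each WT library. The order of the ends in TPM was therefore proximal, distal, middle in all 6 libraries of WT and DIDO3ΔCT+HADIDO3, and middle, proximal, distal in all 3 libraries of DIDO3ΔE16. Neighbours in these orders did not overlap within a group.

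**Figure D2:**
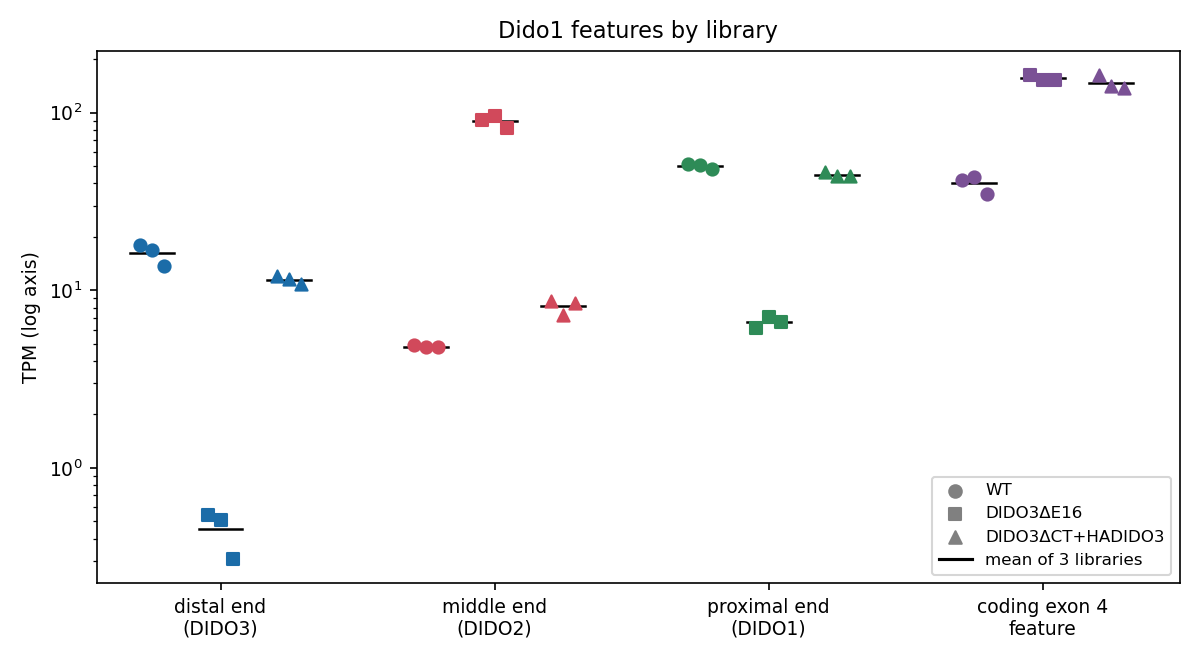
TPM on a log axis in each library at the distal, middle and proximal ends and at the feature over coding exon 4, with circles for WT, squares for DIDO3ΔE16, triangles for DIDO3ΔCT+HADIDO3 and a line at the mean of 3 libraries. The middle end is at 4.82 TPM in WT and 89.5 TPM in DIDO3ΔE16 on average, while the exon 4 feature is high in both altered lines.

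The distal region lies partly in the exon deleted in DIDO3ΔE16, so its fall there is not counted as an independent result. How much of the fall the deletion itself accounts for was not tested. Relative to WT, all 3 ends changed in this line, 2 down and 1 up. Each was tested in a limma fit of log2(TPM + 0.1) over all 21063 regions with TPM above 0 in the 6 libraries, and a region was called when it differed by 0.7 or more on the log2 scale, in either direction, with a p under 0.05 after Benjamini-Hochberg (BH) adjustment. SE is the standard error of a log2 difference. By this rule 15.1% of the regions were called, 10.2% as higher and 4.94% as lower. The log2 fold change was −4.94 at the distal end (SE 0.23, limma, BH-adjusted p = 0.000269). At the middle end it was 4.12 (SE 0.07, limma, BH-adjusted p = 3.57e-05), a 17.4-fold higher level. At the proximal end it was −2.97 (SE 0.06, limma, BH-adjusted p = 4.77e-05), a 7.84-fold lower level. Library names of WT replicates 1 and 4 begin with C7A9, and those of WT replicate 2-3 and all mutant libraries with C79M. These beginnings were read here as flow cell families, which the labels do not name. Against WT replicate 2-3 alone, which shares the mutant libraries' family, the log2 fold changes were −5.03, 4.12 and −2.996 at the distal, middle and proximal ends. In such a fit WT is 1 library, which is assumed to vary like the mutant libraries, and these alone give the spread. For a single region, 3 libraries against 3 allow no exact permutation p under 0.1, and each of the 3 ends reached that value.

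In DIDO3ΔCT+HADIDO3 relative to WT, none of the 3 ends was called, where 17.3% of 20879 regions were. The adjusted p was under 0.05 at all 3 ends, as at 38.4% of all regions, but the changes were smaller than the fold threshold. The log2 fold change was −0.58 at the distal end (SE 0.11, limma, BH-adjusted p = 0.0136), 0.64 at the middle end (SE 0.09, limma, BH-adjusted p = 0.00523) and −0.27 at the proximal end (SE 0.05, limma, BH-adjusted p = 0.0119). Against WT replicate 2-3 alone these values were −0.65, 0.65 and −0.29. The TPM of the 3 ends did not overlap between the groups, which was also so for 53.5% of all regions tested. Without the scaling of libraries the middle end passed the threshold, at a log2 fold change of 0.74. Leaving out DIDO3ΔCT+HADIDO3 replicate 2, the library with the lowest middle end of its group, also moved it past the threshold, to 0.71 (limma, BH-adjusted p = 0.00955).

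Set directly against each other, both altered lines differed at every end. DIDO3ΔE16 was lower than DIDO3ΔCT+HADIDO3 by a log2 difference of −4.39 at the distal end (SE 0.22, limma, BH-adjusted p = 9.93e-05). It was higher by 3.46 at the middle end and lower at the proximal end, with a log2 difference of −2.72. The BH-adjusted p-values of these 2 ends in limma were 2.8e-05 and 2.58e-05, in a comparison in which 27.4% of 21172 regions were called.

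The summed TPM of the 3 ends changed less than its parts. In WT the sum was 74.4, 72.4 and 67.0 TPM, in DIDO3ΔE16 97.4, 103.6 and 88.6 TPM, and in DIDO3ΔCT+HADIDO3 67.3, 62.7 and 63.1 TPM. DIDO3ΔE16 was thus above all other libraries, with a log2 ratio of the group means of 0.44 to WT (exact permutation test, two-sided p = 0.1, the smallest the design allows). DIDO3ΔCT+HADIDO3 overlapped WT, with a log2 ratio of −0.15 (exact permutation test, two-sided p = 0.2).

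As a share of this sum, the proximal end made up most of the Dido1 signal in WT, with 69.4%, 70.2% and 72.4% in replicates 1, 2-3 and 4. The distal end held 24.0%, 23.2% and 20.5%, and the middle end 6.59%, 6.60% and 7.15%. WT cells thus carried mainly the DIDO1 end, with a mean of 70.6% ± 1.56 (SD, n = 3 libraries), then the DIDO3 end with 22.6% ± 1.87, then the DIDO2 end with 6.78% ± 0.320. The spread between libraries was small against the distance between ends. With TPM multiplied by region length, the mean WT shares were 74.2%, 17.4% and 8.41% at the proximal, distal and middle ends.

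In DIDO3ΔE16 the middle end held 93.1%, 92.7% and 92.1% of the sum. The proximal end held 6.33%, 6.80% and 7.51%, and the distal end 0.561%, 0.493% and 0.346%. The share of the middle end was 92.7% ± 0.484 (SD, n = 3 libraries), which is 85.9 percentage points more than in WT, while the proximal share fell by 63.8 points and the distal share fell by 22.1 points. The middle end stood at 0.096 times the proximal end in WT (SD 0.002) and at 13.5 times in DIDO3ΔE16 (SD 1.22). Proximal and distal ends did not fall alike: the proximal end was 3.15 times the distal end in WT (SD 0.343) and 15.6 times in DIDO3ΔE16 (SD 5.42), with WT between 2.89 and 3.54 and DIDO3ΔE16 between 11.3 and 21.7.

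In DIDO3ΔCT+HADIDO3 the proximal end held 69.2%, 70.0% and 69.3%. Replicates 1 and 3 were just under the lowest WT library and replicate 2 was inside the range of WT. The distal end held 17.9%, 18.3% and 17.3%, under each WT library, and the middle end 12.9%, 11.6% and 13.4%, above each WT library. The middle end thus gained 5.85 points on WT and the distal share fell by 4.73, with a difference of −1.11 points at the proximal end. With TPM multiplied by region length, the middle end held 15.3% and the distal end 13.4% on average in this line. Their order thus depends on the measure. The middle end was at 0.182 times the proximal end (SD 0.014), between 0.166 and 0.193 in single libraries, against 0.094 to 0.099 in WT.

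**Figure D3:**
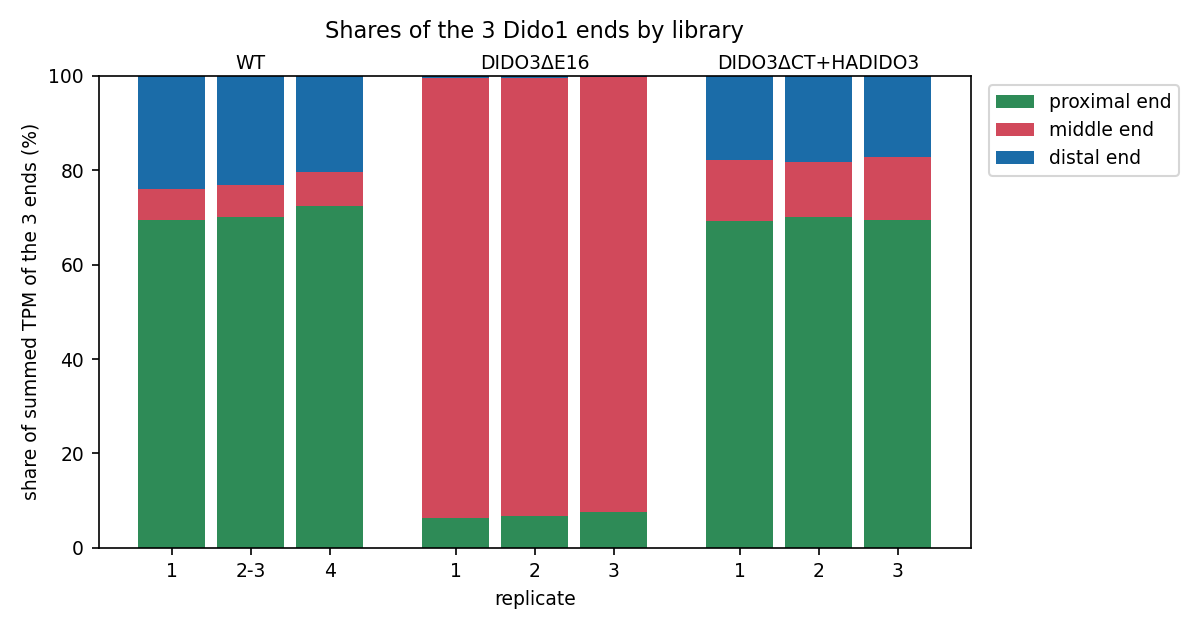
Stacked bars of the share of the summed TPM of the 3 ends, in percent, in each of the 9 libraries. The middle end takes over 92% in each DIDO3ΔE16 library and between 11.6% and 13.4% in DIDO3ΔCT+HADIDO3, where the proximal end is near its WT share.

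The shares were tested as log2 odds, the log2 ratio of an end to the sum of the other ends, over the genes with at least 2 regions that do not overlap each other. These were 3353 genes with 7821 regions. In DIDO3ΔE16 relative to WT all 3 Dido1 shares were called, where 9.32% of 7010 regions were. The fall of the distal share is likewise not counted as an independent result. The log2 odds differed by −5.69 at the distal end (SE 0.20, limma, BH-adjusted p = 0.000253), by 7.40 at the middle end (SE 0.11, limma, BH-adjusted p = 2.27e-05) and by −5.01 at the proximal end (SE 0.12, limma, BH-adjusted p = 0.000189). Against WT replicate 2-3 alone the values were −5.75, 7.44 and −4.97.

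In DIDO3ΔCT+HADIDO3 relative to WT 1 of the 3 shares was called, that of the middle end, where 10.2% of 6895 regions were called. Its log2 odds were higher by 0.98 (SE 0.12, limma, BH-adjusted p = 0.00896). For the distal end the difference was −0.42 (limma, BH-adjusted p = 0.0833) and for the proximal end −0.08 (limma, BH-adjusted p = 0.667). With the flow cell family as a covariate the value was 1.02 and no longer called (limma, BH-adjusted p = 0.0599), in a fit that sets the mutant libraries against WT replicate 2-3 and has fewer degrees of freedom. It was also 1.02 against that library alone. Between DIDO3ΔE16 and DIDO3ΔCT+HADIDO3 the log2 odds differed by −5.27, 6.42 and −4.93 at the distal, middle and proximal ends, and all 3 were called, where 22.4% of 7001 regions were.

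Set among other genes, the exchange of ends at Dido1 in DIDO3ΔE16 was large. For Dido1 only the 3 ends were counted, without the feature over coding exon 4, while other genes kept all their regions. So counted, of the 2364 genes with at least 5 TPM summed over their regions in both groups, Dido1 had the largest change in mean share of any region, 85.9 points. The median of the largest change per gene was 1.79 points. The exon 4 feature was at 40.2 TPM in WT and 155.9 TPM in DIDO3ΔE16 on average. With it in the sum, the share changes at the 3 ends would be smaller, and the rank of Dido1 was not computed. With Dido1 there were 6 genes at 50 points or more. The gene next after Dido1 was Tlk2, a chromatin-associated kinase, in which one of 2 regions went from 12.9% ± 1.21 to 69.4% ± 13.5 (SD, n = 3 libraries). In Kalrn one of 4 regions went from 6.10% to 60.8%, and in Safb, which encodes a scaffold attachment factor that binds RNA, one of 2 regions went from 36.9% to 87.4%. In Tatdn1 the WT libraries spread from 9.72% to 83.9%. These genes were taken for the size of the change, and no test is given for them. In DIDO3ΔCT+HADIDO3 relative to WT the largest change at Dido1, 5.85 points, was exceeded by 583 of 2342 genes.

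**Figure D4:**
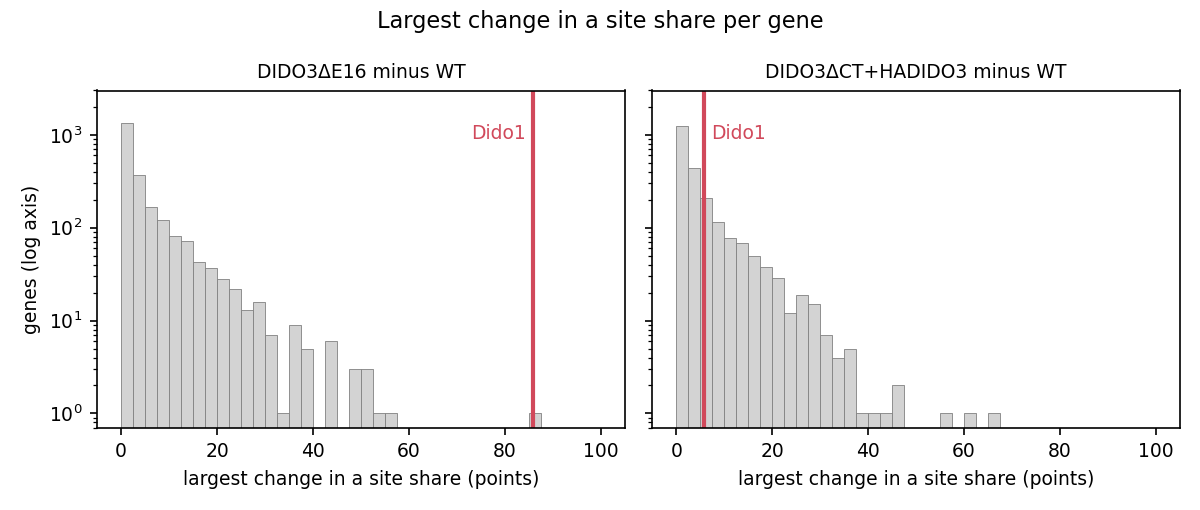
Number of genes (log axis) by the largest change in mean share of any of their regions, in percentage points, for DIDO3ΔE16 minus WT (left) and DIDO3ΔCT+HADIDO3 minus WT (right), with Dido1 marked by the red line. Dido1 is at 85.9 points on the left, beyond all other genes, and at 5.85 points on the right, where 583 of 2342 genes lie further out.

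A further Dido1 feature lies outside the 3 ends. This feature, uc008ojx.2 (chr2:180686711-180688819, reverse strand), belongs to another annotated transcript, and the 2 kb added after the end of that transcript contain coding exon 4 (chr2:180687476-180687797), which Dido1-202, Dido1-204 and Dido1-206 all contain. It had 42.0, 43.6 and 34.9 TPM in WT, 162.5, 153.2 and 152.0 TPM in DIDO3ΔE16, and 163.1, 141.4 and 138.1 TPM in DIDO3ΔCT+HADIDO3. Both altered lines were thus well above WT and overlapped each other. The log2 fold change was 1.90 in DIDO3ΔE16 (SE 0.09, limma, BH-adjusted p = 0.000279) and 1.77 in DIDO3ΔCT+HADIDO3 (SE 0.12, limma, BH-adjusted p = 0.000474), and both were called. Between the lines the log2 difference was 0.10 (SE 0.09, limma, BH-adjusted p = 0.389). Relative to WT replicate 2-3 alone the lines differed by 1.76 and 1.65.

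This feature did not move with the 3 ends. It stood at 0.564, 0.603 and 0.521 times the sum of the 3 ends in WT, at 1.67, 1.48 and 1.72 times in DIDO3ΔE16, and at 2.42, 2.25 and 2.19 times in DIDO3ΔCT+HADIDO3. The ratio was therefore highest in the line whose sum of ends overlapped WT. Whether the HADIDO3 construct contributes reads to exon 4 was not tested. All 3 transcripts contain coding exon 4, so the feature also covers their RNA, and adding it to the sum can count the same RNA again. Whether transcripts end at this feature was not tested. It was high in both altered lines relative to the ends, which lowers the log2 odds of every end there by construction. With it added, the log2 odds in DIDO3ΔCT+HADIDO3 differed from WT by −1.55, −0.20 and −1.62 at the distal, middle and proximal ends (limma, BH-adjusted p = 0.00304, 0.432 and 0.00193). In DIDO3ΔE16 the middle end differed by 3.57. These values thus mix the level of this feature with the choice between the 3 ends.

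In DIDO3ΔE16 the log2 fold changes of the neighbouring genes were smaller than those of the 3 Dido1 ends. In DIDO3ΔCT+HADIDO3 they were not: Gid8 was at 1.18 and Ogfr at −0.47, neither of them called, beside −0.58, 0.64 and −0.27 at the Dido1 ends. The nearest 3 genes with features on each side hold 9 regions, 17.6 to 83.6 kb from the nearest Dido1 feature, of which 7 could be tested against WT. In DIDO3ΔE16 1 of the 7 was called, where 15.1% of all regions were, which is about the same share. In DIDO3ΔCT+HADIDO3 none was called by limma (2 of 7 at an unadjusted p under 0.05), where 17.3% of all regions were. The called one was the end of Col9a3 (chr2:180621421-180624185), a collagen gene on the opposite strand, 31.8 kb beyond the distal end, with 75.7, 75.5 and 69.7 TPM in WT, 134.0, 136.3 and 150.8 TPM in DIDO3ΔE16 and 63.1, 65.0 and 73.7 TPM in DIDO3ΔCT+HADIDO3. Relative to WT this end changed by 0.87 on the log2 scale in DIDO3ΔE16 (SE 0.05, limma, BH-adjusted p = 0.000548) and −0.24 in DIDO3ΔCT+HADIDO3. It shares bases with an end of Tcfl5 on the other strand, whose level was 7.70 TPM in WT and 9.67 TPM in DIDO3ΔE16 on average.

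The region nearest to Dido1 is the other end of Tcfl5, a gene for a basic helix-loop-helix factor, 17.6 kb beyond the distal end. It had 13.5, 14.7 and 13.1 TPM in WT and 15.9, 16.8 and 18.2 TPM in DIDO3ΔE16, a log2 fold change of 0.23 (SE 0.08, limma, BH-adjusted p = 0.0693), and was not called. On the upstream side, Slc17a9, which encodes a vesicular nucleotide transporter, had 28.5, 28.9 and 29.3 TPM in WT and 20.3, 21.8 and 21.3 TPM in DIDO3ΔE16. Its log2 fold change of −0.51 (limma, BH-adjusted p = 0.0015) was under the fold threshold. Gid8, which encodes a subunit of the CTLH ubiquitin ligase, had 86.0 and 77.0 TPM in WT replicates 1 and 4 but 17.96 in WT replicate 2-3, against 112.8 to 120.5 TPM in DIDO3ΔE16. WT replicate 2-3 stands apart there, and the log2 fold change of 1.19 was not called (limma, BH-adjusted p = 0.238). It was 0.46 without that library and 2.63 against that library alone.

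**Figure D5:**
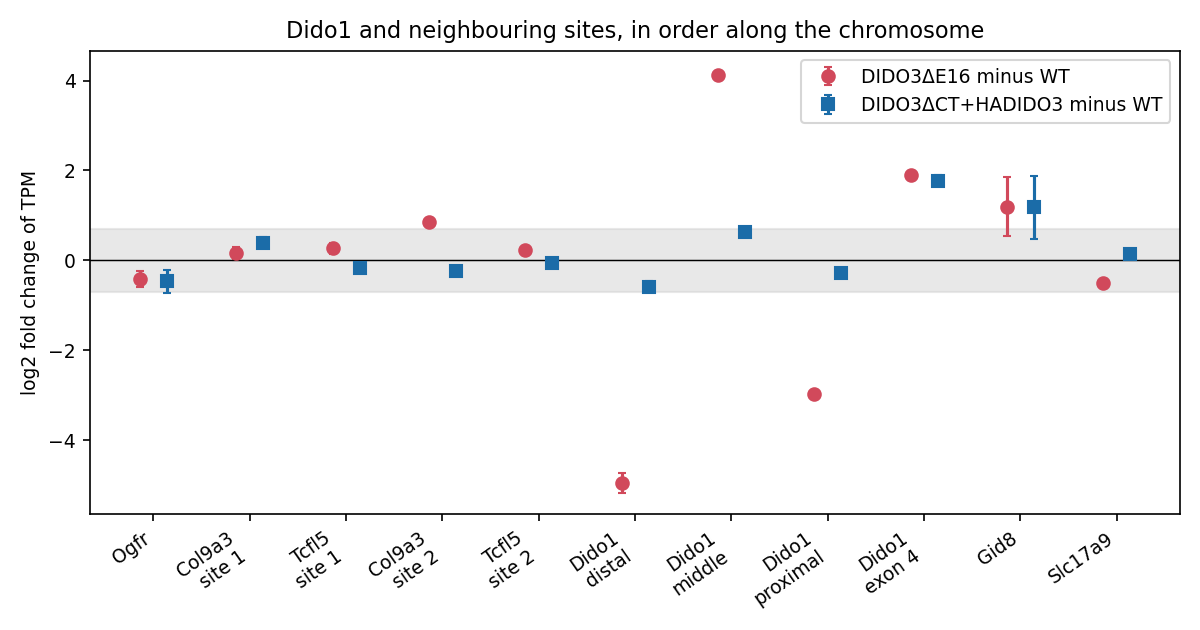
Log2 fold change of TPM with its standard error for the 4 Dido1 features and the testable regions of the nearest genes, in order along the chromosome, with DIDO3ΔE16 minus WT as circles and DIDO3ΔCT+HADIDO3 minus WT as squares; the grey band spans the fold threshold of 0.7 on either side of 0. The 3 ends of Dido1 lie at −4.94, 4.12 and −2.97 in DIDO3ΔE16, while the neighbouring regions lie between −0.51 and 1.19.

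Genes whose regions followed a Dido1 end most closely over the 9 libraries were ranked by Pearson's r of scaled log2 TPM among 11073 regions. The 9 libraries fall into 3 groups, so r describes mainly the pattern of the group means, and it does not measure the size of a change. For the distal end they included Elmo1 (r = 0.996), with 20.9 TPM in WT and 8.63 TPM in DIDO3ΔE16. Usp24 (r = 0.994) was at 34.5 and 24.3 TPM in these groups, a far smaller change than at the distal end. For the middle end they included Rnf157, with 20.6 TPM in WT, 92.8 TPM in DIDO3ΔE16 and 25.1 TPM in DIDO3ΔCT+HADIDO3, and Vamp1, with 4.93, 24.2 and 6.59 TPM (r = 0.995 each). For the proximal end they were Map3k12 (r = 0.998), Ttf2 (r = 0.997) and Glod4 (r = 0.996). Ttf2 was at 235.1 TPM in WT and 95.7 TPM in DIDO3ΔE16, and Glod4 at 100.3 and 61.0 TPM. The Map3k12 region, part of which is also covered by an opposite-strand feature, was at 223.7 TPM in WT, 5.37 TPM in DIDO3ΔE16 and 218.7 TPM in DIDO3ΔCT+HADIDO3.

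Relatives and partners of DIDO were compared at the most abundant region of each gene. This list holds other SPOC proteins, TFIIS factors, subunits of paraspeckles and RNA polymerase II, and of its genes 11 had a region. None of the 11 was called in either line relative to WT by limma (3 in DIDO3ΔE16 and 6 in DIDO3ΔCT+HADIDO3 at an unadjusted p under 0.05). The BH-adjusted p in limma was under 0.05 for 2 in DIDO3ΔE16. In DIDO3ΔCT+HADIDO3 it was so for 6, beside 38.4% of all regions, and these missed only the fold threshold. Their median log2 fold change was −0.01 in DIDO3ΔE16 and −0.10 in DIDO3ΔCT+HADIDO3, beside −0.01 over all regions in both. Phf3, the closest relative of DIDO with the same PHD, TFSIIM and SPOC domains, was at 55.4 TPM in WT, 55.0 TPM in DIDO3ΔE16 and 40.9 TPM in DIDO3ΔCT+HADIDO3. Relative to WT it differed by −0.07 on the log2 scale in DIDO3ΔE16 (limma, BH-adjusted p = 0.416) and −0.54 in DIDO3ΔCT+HADIDO3 (limma, BH-adjusted p = 0.00676). Sfpq, a splicing factor, was at 415.8, 361.0 and 286.4 TPM in WT, DIDO3ΔE16 and DIDO3ΔCT+HADIDO3. Its log2 fold change relative to WT was −0.26 in DIDO3ΔE16 and −0.64 in DIDO3ΔCT+HADIDO3 (limma, BH-adjusted p = 0.0286 and 0.00256). Dhx9, an RNA helicase that acts on R-loops, was at 136.5, 157.9 and 98.7 TPM. Its log2 fold changes in the same order of lines were 0.15 and −0.57 (limma, BH-adjusted p = 0.109 and 0.00353). Between both altered lines 1 of the 11 was called, Tcea3, a TFIIS factor, with 10.0 TPM in DIDO3ΔE16 and 18.95 TPM in DIDO3ΔCT+HADIDO3.

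Of the genes for cleavage, polyadenylation and termination, 29 had a region. In DIDO3ΔE16 relative to WT 1 was called higher and 1 lower of the 27 tested, and their median log2 fold change was −0.08 beside −0.01 over all regions. The lower one was Cdk12, a kinase of the RNA polymerase II tail, with 56.8 TPM in WT and 30.4 TPM in DIDO3ΔE16 and a log2 fold change of −0.96 (limma, BH-adjusted p = 0.00117). In DIDO3ΔCT+HADIDO3 this region had 0, 56.1 and 61.3 TPM in replicates 1 to 3 and was not tested, so its value can drop out in a single library. In DIDO3ΔCT+HADIDO3 none of 26 was called by limma (16 at an unadjusted p under 0.05, none of them past the fold threshold), with a median of −0.28. Of these 16, 14 also had a BH-adjusted p under 0.05 in limma, beside 38.4% of all regions, and missed only the fold threshold. Against DIDO3ΔCT+HADIDO3, DIDO3ΔE16 had 4 higher and 1 lower of 27 tested. Among them were Ssu72, a phosphatase of the RNA polymerase II tail, at 158.3 and 84.97 TPM, and Cpsf6, a subunit of cleavage factor I, at 20.0 and 49.7 TPM in DIDO3ΔE16 and DIDO3ΔCT+HADIDO3. The shares of the 2 lists called are no larger than the 15.1%, 17.3% and 27.4% over all regions.

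The labelled cell type was checked with 8 ESC marker genes, which were all above 1 TPM in every library and summed to between 4371 and 6685 TPM. The regions used for Nanog and Esrrb were low in single libraries. Nanog was at 3.10 TPM in WT replicate 4, against 664.2 and 676.4 TPM in the other WT libraries. Esrrb was at 5.18 and 8.78 TPM in WT replicates 1 and 4 and at 1155 TPM in WT replicate 2-3. In DIDO3ΔCT+HADIDO3 replicate 2 Esrrb was at 9.695 TPM. The same check was made for the fibroblasts that ESC are grown on. Their 8 markers summed to 54.5 to 61.0 TPM in WT, 120.1 to 126.5 TPM in DIDO3ΔE16 and 91.9 to 99.1 TPM in DIDO3ΔCT+HADIDO3, and the groups did not overlap. Lum and Dcn were at or near 0 in all groups. Col1a2, a fibrillar collagen gene of fibroblasts, was at 18.3, 38.2 and 0.239 TPM in WT, DIDO3ΔE16 and DIDO3ΔCT+HADIDO3. The markers did not move together in DIDO3ΔCT+HADIDO3. Col1a1 was at 11.7 TPM in WT and 1.14 TPM in this line, and Col3a1 and Postn were at or near 0 in it. The surface protein gene Thy1 was at 19.1 and 54.4 TPM and the receptor gene Pdgfrb at 5.16 and 39.6 TPM in WT and this line, and they made up most of its sum. The part of fibroblast RNA in the Dido1 levels was not tested.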

How the data were processed

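RNA from mouse ESC was sequenced as paired-end, stranded libraries. Per the labels' processing notes and the study's methods, the authors aligned reads to mm10 with BWA 0.7.15, and quantified UCSC 3′UTRs extended by 2 kb with StringTie 1.3.3. The deposited values used here are TPM per feature. The mean coverage that the authors deposited beside them (an unnormalized coverage signal, with coordinates) served for an alternative and for the depth. The strand setting of the quantification was not given in the sources used here. TPM keeps no read counts, so no counting interval is given.

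TPM of features with identical coordinates was summed. Gene symbols came from GENCODE M21 (42830 of 43031 features). Libraries were scaled by the trimmed mean of log2 ratios (30% from each end). limma (trend and robust options) was fitted to log2(TPM + 0.1) for each pair of groups, so fold changes understate the change of low regions, and p-values were adjusted by Benjamini-Hochberg over all regions tested. Unscaled, the median of all regions would be higher by 0.06 and 0.10 in DIDO3ΔE16 and DIDO3ΔCT+HADIDO3 relative to WT. Shares were fitted as log2 odds in the same way. The fits were tested on simulated data. R 4.3.3, limma 3.58.1, Python 3.11.15, numpy 2.4.6 and pandas 2.3.3 were used.

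The regions, gene lists and tests were chosen with earlier results of these data known. Named were the Dido1 features, the nearest 3 genes on each side, for each end the 3 regions most like it (mean of at least 5 TPM, no overlap on their strand), the 5 genes with the largest change in share after Dido1, Phf3, Sfpq and Dhx9, and up to 3 called genes of each list. A few genes that this rule names are not reported here. Alternatives were the pseudocount, the filter, the scaling, the unit, single features, all 9 libraries in 1 fit, flow cells, each library left out and a replicate block.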

Additional observations from a re-analysis of the deposited data

Results flagged for a closer look

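Both altered lines were compared with the same WT libraries. A direct test of DIDO3ΔE16 against DIDO3ΔCT+HADIDO3 (limma with Benjamini-Hochberg adjustment) called all 3 ends of Dido1 and 1 of 8 tested neighbouring regions. Of all 21172 regions, 27.4% were called in this comparison. At Dido1 the log2 difference was −4.39 at the distal end, 3.46 at the middle end and −2.72 at the proximal end. At the end of Col9a3 it was 1.08, with 140.4 TPM in DIDO3ΔE16 and 67.3 TPM in DIDO3ΔCT+HADIDO3 on average. The feature over coding exon 4 of Dido1 was not called in the direct test, although it was called in each line relative to WT.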

How the results depend on the processing

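For DIDO3ΔE16 against either other group, the 6 Dido1 levels and 6 shares kept their direction in all 192 alternatives and their call in 180. The 12 lost calls came from fits with a replicate block against WT, which leave 1 residual degree of freedom. The numbers do not pair the libraries: deviations of same-numbered libraries correlated between −0.036 and 0.042. With WT replicate 2-3 as number 2 the block gave levels of −4.84, 4.19 and −2.99 and log2 odds of −5.63, 7.49 and −5.02 at the distal, middle and proximal ends; as number 3 it gave −5.13, 4.07 and −3.03, and −5.81, 7.43 and −4.94. Over all regions these block fits called 0 by limma in both comparisons with WT (5841 to 6915 at an unadjusted p under 0.05), and hence 0 neighbours and 0 list genes. In DIDO3ΔCT+HADIDO3 the block gave the middle share log2 odds of 0.97 and 1.08, not called, as with flow cells as a covariate or within 1 family (1.02). There the middle level was called unscaled (0.74) and ran from 0.58 to 0.71 with 1 library left out, and the proximal level was 0.0048 on single features, because WT replicate 2-3 splits this end into 21.8 and 28.9 TPM. The exon 4 feature also covers RNA of the transcripts of all 3 ends, and adding it lowers each share most where it is high. This alternative, chosen after seeing the data, gave log2 odds of −1.55, −0.20 and −1.62 in DIDO3ΔCT+HADIDO3. It gave 3.57 for the middle end in DIDO3ΔE16. With a pseudocount of 1 the distal level in DIDO3ΔE16 was −3.58. List genes called in DIDO3ΔE16 relative to WT were 1 in the fit of all 9 libraries, and in DIDO3ΔCT+HADIDO3 they were 1 unscaled and 0 to 1 with 1 library left out. Neighbours called were 2 and 1 in the flow cell alternatives, through Gid8 and its low value in WT replicate 2-3, the 1 WT library these set against the mutants, and 1 to 2 between the lines with 1 library left out. Uncalled neighbours changed direction: Col9a3 (chr2:180613365-180615415) to −0.048 with quantile normalization, Tcfl5 to 0.043 unscaled, Slc17a9 to −0.018 on single features, and between the lines Gid8 to 0.018, 0.0076 and 0.97 with another filter, 9 libraries and single features. With 1 library left out, Gid8 ran from −0.14 to 0.22 and Ogfr from −0.26 to 0.20 between the lines. The cause of the other changes was not tested. The distal end in DIDO3ΔE16 rests on a mean coverage of 0.195 to 0.293 reads, so its fold change is the least precise.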
